A study of Mus musculus with 107 samples.

Results

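The livers compared were the 26 with the highest and the 26 with the lowest Gpnmb ratio among 104 mice with measured arrays. The groups were chosen by the measured Gpnmb value itself, from the ratio of liver RNA to a common pool, so the difference in Gpnmb is a description and carries no test. All mice were females of an F2 intercross that started from C57BL/6J and DBA/2J parents, and all ate an atherogenic diet, and no untreated, male or normally fed group was part of the design. The pool held an equal amount of RNA from each liver. The labels state 111 mice, of which 107 had an array here, and 3 of those arrays held only 0 or missing values. The labels used here give no genotype, age or dye for any mouse, and each mouse had 1 array, so the spread between mice includes the noise of the array.

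Gpnmb encodes glycoprotein nonmetastatic melanoma protein B, a membrane glycoprotein of lysosomes, melanosomes and the cell surface. Macrophages that take up lipid or cell debris make it in large amounts, and transcription factors of the MiT family, which also drive lysosomal genes, are known to act on it. Its outer part can be cut off by ADAM proteases and binds CD44, integrins and syndecans on other cells. DBA/2J mice carry a stop codon in Gpnmb, and C57BL/6J mice an intact gene, so an F2 mouse can carry 0, 1 or 2 intact copies.

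These 3 promoters are printed because they belong to Gpnmb and to a lysosomal and a macrophage gene that were higher with it, and because they hold the motifs searched. They were chosen after their sequences were seen. Each is the RefSeq window of 300 bases on assembly GRCm38.p6, from 250 bases before to 50 bases after the start of the gene, written 5′ to 3′ on the strand of the gene, with the motif in capitals. Gpnmb lies on the plus strand (chr6:49036268-49036567), Ctsd, the protease cathepsin D, on the minus strand (chr7:142387778-142388077), and Cd68, a lysosomal membrane protein of macrophages, on the minus strand (chr11:69666121-69666420).
Gpnmb: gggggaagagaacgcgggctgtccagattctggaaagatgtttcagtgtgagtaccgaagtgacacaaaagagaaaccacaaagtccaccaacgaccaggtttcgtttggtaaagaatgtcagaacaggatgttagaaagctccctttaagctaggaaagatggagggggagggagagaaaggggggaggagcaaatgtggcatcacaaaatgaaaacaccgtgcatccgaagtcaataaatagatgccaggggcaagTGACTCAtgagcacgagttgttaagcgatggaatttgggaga
Ctsd: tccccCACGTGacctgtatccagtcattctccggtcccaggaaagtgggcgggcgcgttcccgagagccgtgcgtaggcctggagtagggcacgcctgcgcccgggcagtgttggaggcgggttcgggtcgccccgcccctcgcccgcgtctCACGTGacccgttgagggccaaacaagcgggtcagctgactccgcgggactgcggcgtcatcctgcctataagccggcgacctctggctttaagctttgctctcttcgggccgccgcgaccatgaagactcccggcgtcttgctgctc
Cd68: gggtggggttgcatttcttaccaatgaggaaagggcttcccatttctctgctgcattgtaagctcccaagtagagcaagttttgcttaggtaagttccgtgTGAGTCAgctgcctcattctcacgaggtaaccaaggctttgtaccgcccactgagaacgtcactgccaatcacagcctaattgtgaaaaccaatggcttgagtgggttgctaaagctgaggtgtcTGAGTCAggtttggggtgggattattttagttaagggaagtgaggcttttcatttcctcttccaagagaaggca

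CACGTG is the E-box read by MiT factors and other basic helix-loop-helix proteins, TCATGTG the M-box of melanocyte genes, TGACTCA the AP-1 element and GAGGAAGT a core read by PU.1 and other Ets factors. Each was searched on both strands (TGACTCA reads TGAGTCA on the other strand), and none of the 4 contains another. In Gpnmb the AP-1 letters began at base 9 counted from the start, with the start base included. In Ctsd the E-box began 245 and 98 bases before the start, and in Cd68 the AP-1 letters began 149 and 24 bases before it. The E-box was found in 7.15% of the 32851 windows of the RefSeq table, the M-box in 3.77%, the AP-1 element in 5.20% and the Ets core in 3.20%. A match describes the letters and is no measured binding site. Of the 8 genes that varied most closely with Gpnmb, named below, 6 matched a window (Lgals3, Cd63, Cyba, Plekho1, Rgs10 and Pld3), and none of the 4 motifs occurred there. Also searched were Mitf and Tfec, which held none of the 4, and Ctss and Mmp12, all described below. The Ctss window held the M-box and the Ets core, and the Mmp12 windows the Ets core, the M-box and the AP-1 element.

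Gpnmb was measured by 1 probe, which had a value within the scale on all 104 arrays. Its log2 ratio to the pool ran from -3.81 to 2.91, a 105-fold range. In the high-Gpnmb livers it lay between 0.53 and 2.91 with a median of 1.42, and in the low-Gpnmb livers between -3.81 and -2.36 with a median of -2.86. The 52 livers between these groups ran from -2.35 to 0.51. The group means were 1.42 ± 0.61 and -2.93 ± 0.40 log2 (SD, n = 26 each), 4.35 log2 or 20.4-fold apart. The values just inside and outside the limits of the groups were 0.53 against 0.51 and -2.36 against -2.35, so the groups are the ends of a continuous series. The widest gap among the inner mice was 0.27 log2, between -0.92 and -1.19, with 57 mice above it. By its SD over mice of 1.71 log2 Gpnmb ranked 10 among the genes measured, where the median gene had an SD of 0.34.

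**Figure D1:**
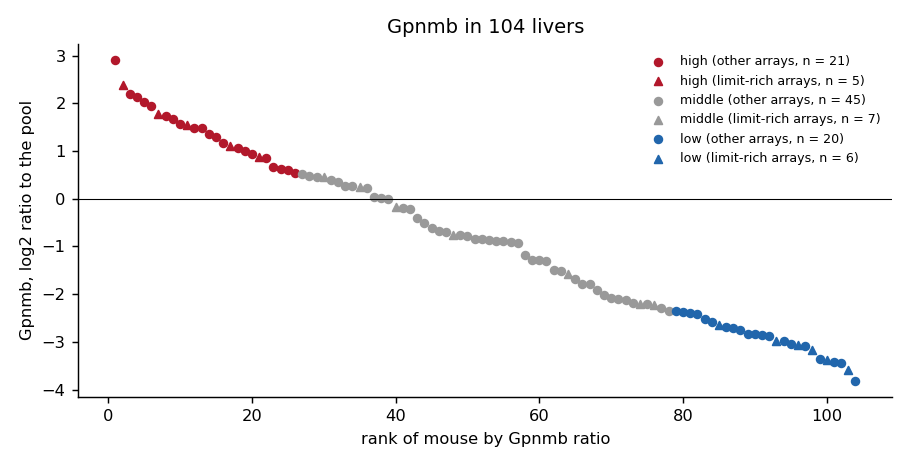
The log2 ratio of Gpnmb to the pool (vertical axis) for 104 mice in order of that ratio (horizontal axis), coloured by group, with triangles for the 18 arrays rich in values at the limits of the scale. The values fall without a break from 2.91 to -3.81, and triangles occur in each group (5 high, 7 middle, 6 low).

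The deposited values stop at exactly -2 and 2 and were read as log10 ratios for that reason; with a natural logarithm every log2 difference given here would be 0.434 times as large. The direction of the ratios is not settled, since no dye was named and 7 of 5356 pairs of arrays correlated below -0.3, the lowest at -0.463. Mouse over pool is the likely direction. With all signs turned, the levels change sign and the highest and lowest mice change places, while each difference between the groups stays the same. Turning all signs also leaves the correlations between arrays as they are. Single arrays with the opposite direction would be ranked differently by Gpnmb and would change the differences. Whether any array had the opposite direction was not tested. Arrays differed in ways that moved with Gpnmb: the median log2 ratio of an array lay between -0.09 and 0.04 in the high-Gpnmb livers and between -0.02 and 0.07 in the low-Gpnmb livers (Pearson r with Gpnmb -0.578, n = 104 arrays that share 1 pool). The first principal component of the arrays, which held 19.0% of the variance of 10150 genes, had an r of 0.687 with Gpnmb. Mice numbered 70 or below made up 6 of the 26 high and 16 of the 26 low livers. The part of these 3 differences in the results was not tested beyond the values given with them.

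Of 12314 other genes, 4904 (39.8%) differed between the groups at an adjusted p under 0.05 (limma, Benjamini-Hochberg over all genes tested), and such genes are termed called. Of these, 2137 (17.4% of all genes) were higher and 2767 (22.5%) lower in the high-Gpnmb livers. With each array centred on its median the split was 2589 higher and 1967 lower. More than 2-fold differences were fewer, 366 higher and 74 lower, and the median absolute difference over all genes was 0.17 log2. In no gene were the 26 high and 26 low livers fully apart. Since liver is a mixture of cells, fewer cells of a type and less RNA per cell cannot be told apart in any of the differences below, and the tests describe association with Gpnmb, not its effect. The same fit with the first principal component as a covariate called 184 genes (1.49%), 144 higher and 40 lower. This component was computed from the same genes. Of the 4904 genes, 3182 kept their direction with it, the others turned, and 136 kept both call and direction.

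Genes of lipid-laden macrophages, the foam cells and scar-associated cells that engulf lipid and debris, stood high in the high-Gpnmb livers. Of 16 measured members, 12 were higher and none lower, against 17.4% and 22.5% of all genes, with a median difference of 1.15 log2 where that of all genes was -0.04. The mean log2 ratio over the list ran from -0.11 to 1.46 in the high livers and from -1.26 to 0.45 in the low livers. Lgals3, the galactose-binding lectin galectin-3 that marks activated macrophages, lay between 0.02 and 2.93 in the high livers (median 1.10) and between -2.99 and 1.04 in the low livers (median -2.06). Of the 26 low livers, 24 lay below every high liver. The difference was 2.77 log2 or 6.84-fold (SE 0.25, limma adjusted p = 2.08e-12).

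Cd63, a tetraspanin of lysosomes and exosomes, ran from -0.33 to 2.82 (median 0.997) in the high livers and from -2.27 to 0.31 (median -1.35) in the low livers. Only 2 high livers reached into the range of the low ones, and the difference was 2.24 log2 (SE 0.19, limma adjusted p = 6.27e-13). Clec7a, the beta-glucan receptor dectin-1, had medians of 0.87 and -1.51 and differed by 2.30 log2 (SE 0.24, limma adjusted p = 3.99e-11). Fabp5, a fatty acid binding protein of macrophages and skin, had medians of 0.98 and -1.70 and differed by 2.63 log2 (SE 0.30, n = 26 and 24, limma adjusted p = 5.88e-10), and 2.04 log2 without the 18 arrays rich in values at the limits of the scale. Mmp12, the macrophage elastase, was 2.29 log2 higher, Lpl, lipoprotein lipase, 1.73, and Itgax, the integrin chain CD11c, 0.90. Capg, an actin-capping protein, showed a smaller but tight shift of 1.12 log2 (SE 0.09), from a median of -0.64 to 0.55, with 23 low livers below every high liver.

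The other members, 4 in number, did not pass. Trem2, the lipid receptor that defines these cells in other studies, ran from -0.63 to 0.47 in the high livers and from -0.11 to 0.54 in the low ones, and its difference was -0.12 log2 (limma adjusted p = 0.052). The cholesterol transporter Abca1 (0.10), the scavenger receptor Cd36 (-0.03) and Apoe (-0.18), an apolipoprotein made mostly by hepatocytes, were not called either. Abcg1, of the same efflux pathway as Abca1, had medians of 0.84 and -1.15 and differed by 1.76 log2 (SE 0.18, limma adjusted p = 2.02e-11). With the first principal component as a covariate 10 of the 16 remained called, all higher: Lpl, Cd63, Fabp5, Lgals3, Itgax, Mmp12, Capg, Clec7a, Ctsd and Abcg1. This is beside 1.49% of all genes under that fit.

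**Figure D2:**
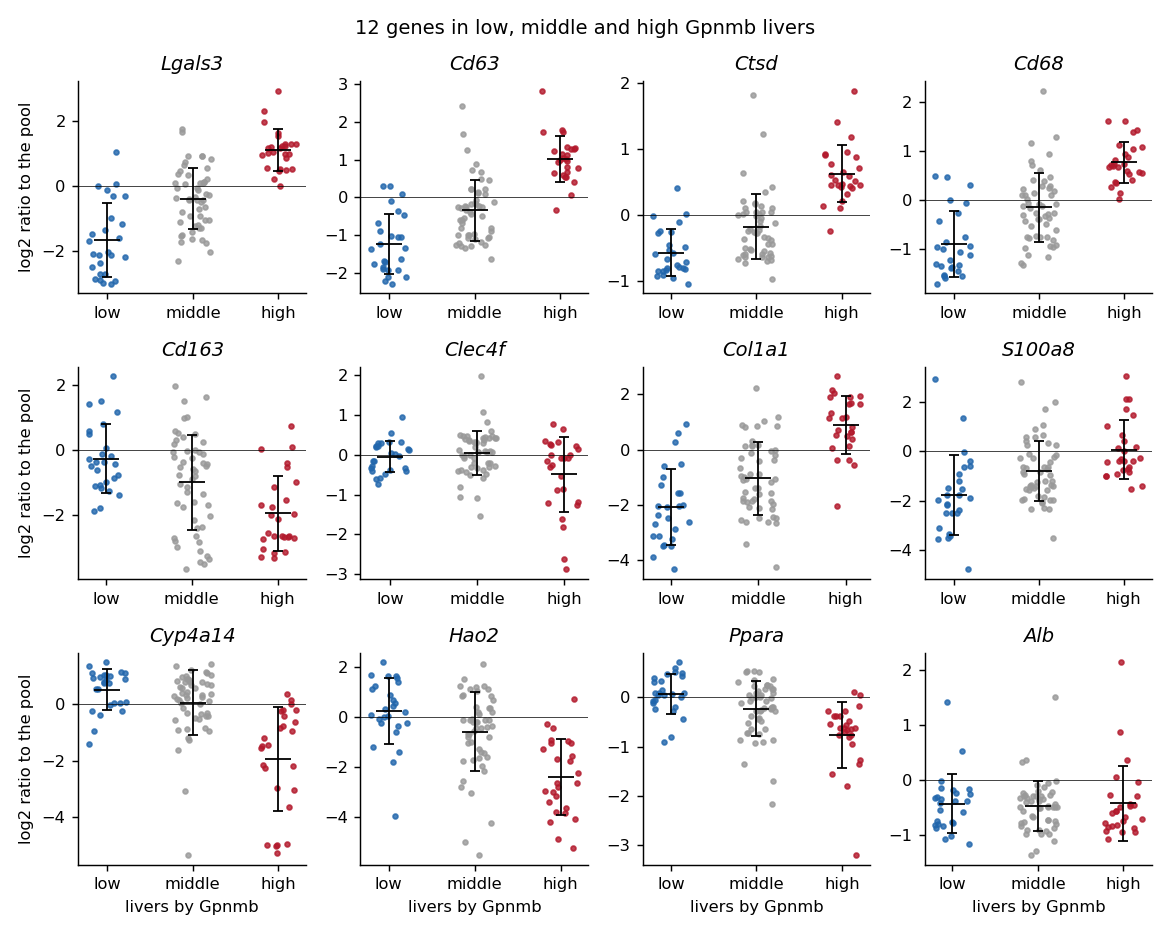
Log2 ratio to the pool (vertical axis) of 12 genes in each liver (points), in the 26 low, 52 middle and 26 high Gpnmb livers, with mean and SD in black. Lgals3, Cd63, Ctsd and Cd68 climb from low to high, Cyp4a14, Hao2 and Ppara descend, Cd163 descends although it is a macrophage gene, and Alb keeps the same range in all 3 groups.

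Pan-macrophage genes were higher too, while genes of the resident liver macrophage, the Kupffer cell, were not uniformly so. Of 19 measured macrophage genes 14 were higher and 1 was lower, against 17.4% higher and 22.5% lower among all genes, with a median difference of 0.96 log2. The fit with the first principal component called 5 of the 19, Cd68, Tyrobp, C1qa and Mpeg1 higher and Cd163 lower. Cd68 ran from 0.03 to 1.62 (median 0.71) in the high livers and from -1.70 to 0.51 (median -1.09) in the low ones, with 23 of the low livers below every high liver. Its difference was 1.68 log2 (SE 0.15, limma adjusted p = 2.86e-12). The immune signalling adaptors Tyrobp and Fcer1g were 1.43 and 1.91 log2 higher, the complement genes C1qa, C1qb and C1qc 1.14, 1.28 and 1.24, lysozyme Lyz2 1.67, and Mpeg1, a pore-forming protein of phagocytes, 1.60. Ccr2, the chemokine receptor of recruited monocytes, was 0.96 log2 higher (limma adjusted p = 0.0022).

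Cd163, the haemoglobin scavenger receptor of resident macrophages, went the other way. It lay between -3.32 and 0.73 (median -2.33) in the high livers and between -1.88 and 2.26 (median -0.40) in the low livers, and 16 of the 26 high livers were below every low liver. The difference was -1.67 log2 (SE 0.30, limma adjusted p = 1.03e-05), and -1.81 (adjusted p = 0.031) with the first principal component as a covariate. Among the other Kupffer cell genes, Clec4f, a lectin restricted to them, had medians of -0.12 and 0.00 log2 and was not called (difference -0.45, limma adjusted p = 0.065), nor was the scavenger receptor Marco (0.36, adjusted p = 0.49). Cd5l, a secreted scavenger protein of the same cells, was 0.86 log2 higher. Adgre1, which encodes the macrophage surface marker F4/80, differed by 0.54 log2 and was not called (limma adjusted p = 0.059). Csf1r, Vsig4, Timd4, Ms4a7 and Fcgr3 had no named probe.

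Lysosomal genes followed in part. Of 23 measured, 15 were higher and none was lower, against 17.4% and 22.5% of all genes, and the median difference was 0.30 log2. Ctss, cathepsin S of antigen-presenting cells, had medians of 0.93 and -1.73 and the widest difference of the list, 2.39 log2 (SE 0.23, limma adjusted p = 8.18e-12). Ctsd ran from -0.25 to 1.88 (median 0.52) in the high livers and from -1.04 to 0.40 (median -0.70) in the low ones, a difference of 1.19 log2 (SE 0.11, adjusted p = 2.86e-12, limma). Other proteases were the bone-resorbing cathepsin Ctsk (1.33), Ctsb (0.87) and Ctsl (0.27). The sphingolipid activator Psap (0.88), the cholesterol carrier Npc2 (0.81), the hexosaminidase Hexa (0.61) and the glycosidases Glb1 and Naglu (0.45 each) were higher. Laptm5, a lysosomal membrane protein of blood cells, differed by 1.63 log2. The lysosomal acid lipase Lipa (0.01), the cholesterol exporter Npc1 (-0.23), the channel Mcoln1 (0.09) and the peptidase Tpp1 (0.05) were not called. The fit with the first principal component called 8 of the 23, all higher: Ctsb, Ctsd, Ctss, Hexa, Psap, Cd63, and Atp6v1a and Atp6v0d1 of the proton pump, the last of which was not called without it.

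The MiT factors that act on lysosomal and melanosomal genes differed among themselves. Mitf had medians of 0.36 and -0.32 and was 0.59 log2 higher (SE 0.07, limma adjusted p = 5.40e-09), with both of its probes higher by 0.58 and 0.59. Tfec, a macrophage member of the family, had medians of 0.41 and -0.51 and was 0.78 log2 higher (SE 0.11, limma adjusted p = 3.88e-08). Tfeb, the main regulator of lysosome formation, was 0.13 log2 lower (SE 0.04, limma adjusted p = 0.0067), and this call was lost without the 18 arrays rich in values at the limits of the scale (-0.10, adjusted p = 0.077). Tfe3 had no named probe. Mitf and Tfec lie on chromosome 6 with Gpnmb, at 48.9 and -32.2 Mb from it, where a negative distance is toward lower coordinates. Of 5 melanosome genes Mlana was 0.59 log2 higher, and Dct and Tyrp1 were 0.92 and 0.15 log2 lower. Among all genes 17.4% were higher and 22.5% lower. With the first principal component as a covariate Tfec stayed called (0.63, limma adjusted p = 0.029). Mitf did not (0.27, adjusted p = 0.19, limma), Tfeb turned direction (0.05), and none of the 5 melanosome genes was called.

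Of 10 measured binding partners and sheddases of GPNMB, 4 were higher and 2 lower, beside 39.8% called in either direction among all genes, and the median difference was 0.22 log2. Cd44, a hyaluronan receptor, had medians of 0.77 and -1.23 and differed by 1.66 log2 (SE 0.20, limma adjusted p = 3.49e-09), with 22 low livers below every high liver. The sheddase Adam10 was 0.48 log2 higher (SE 0.07, limma adjusted p = 1.49e-07), and its 3 probes gave 0.43, 0.46 and 0.55. The sodium pump chain Atp1b1 was 0.42 higher and the integrin chain Itgav 0.20. The proteoglycan Sdc4 was 0.22 log2 lower and the growth factor receptor Fgfr1 0.16 lower. Itgb1 (0.24), Itga5 (-0.07), the sheddase Adam17 (0.15) and Egfr (0.26) were not called. The 3 probes of Itgav disagreed, with differences of -0.03, 0.19 and 0.44, and of the 2 probes of Itgb1 only the one with 0.35 passed by itself (adjusted p = 2.31e-07, limma). None of the 10 was called with the first principal component as a covariate, and 3 of the 6 (Sdc4, Itgav and Atp1b1) turned direction.

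The genes whose ratios ran most nearly parallel to Gpnmb over all 104 livers were chosen by Pearson r and are given without a test. Lgals3 was nearest (r = 0.810, Spearman rho = 0.815), followed by Cd63 (0.799), the proton channel Hvcn1 (0.798), the lysosomal membrane protein Gpr137b (0.784), the NADPH oxidase chain Cyba (0.781), Plekho1 (0.778), the G protein regulator Rgs10 (0.776) and the lysosomal nuclease Pld3 (0.772). Without the 2 mice farthest from the median Gpnmb these r lay between 0.750 and 0.796. The points share the pool and the array, and with it the shared variation described above. Pld3 is an example of a tight pattern: it lay between 0.21 and 1.85 (median 0.77) in the high livers and between -1.08 and 0.51 (median -0.77) in the low ones, with 25 of 26 low livers below every high liver. None of the 8 lies on chromosome 6; the nearest gene there was Capg (r = 0.770). Most opposed were Klk5, a secreted serine protease (r = -0.712), Cyp2b9, a female-predominant cytochrome (-0.696), Akap1, a mitochondrial anchor of protein kinase A (-0.682), Ifi27 (-0.677) and Paqr9 (-0.659).

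Genes of stellate cells and fibroblasts, which lay down collagen in injured liver, were higher as a group. Of 17 measured members 13 were higher and none was lower, against 17.4% and 22.5% of all genes, and the median difference was 1.21 log2. Col1a1, the main chain of type I collagen, showed the largest difference of all genes tested: it ran from -2.04 to 2.65 (median 0.98) in the high livers and from -4.35 to 0.94 (median -2.23) in the low ones. Of the 26 high livers, 13 lay above every low liver. The difference was 2.99 log2 or 7.94-fold (SE 0.33, limma adjusted p = 3.63e-10). Col3a1 was 2.30 log2 higher, Col1a2 1.52, Col4a1 1.65, the matrix protein Sparc 1.57, the collagen cross-linker Lox 1.44 and the growth factor receptor Pdgfrb 1.21, and the protease inhibitor Timp1 2.83-fold higher. Acta2, the actin of activated stellate cells, and Lrat, the retinol-storing enzyme of quiescent ones, were 0.49 and 0.40 log2 apart and were not called (limma adjusted p = 0.18 and 0.28). Taking the first principal component as a covariate left 0 of the 17 called.

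Bile duct genes shifted the same way with wider scatter. Of 7 measured, 6 were higher, against 17.4% of all genes, with a median of 0.92 log2. Mmp7, a matrix metalloproteinase of injured epithelium, ran from -4.28 to 4.13 (median 0.24) in the high livers and from -5.31 to 1.95 (median -2.45) in the low ones. Most livers of both groups overlapped, and the difference was 2.40 log2 (SE 0.59, limma adjusted p = 9.71e-04). Epcam, an adhesion molecule of duct cells, was 1.72 log2 higher, Krt7, a keratin of ducts, 1.04, and Sox9, a transcription factor of ducts and progenitor cells, 0.92. Of 7 endothelial genes only Lyve1 (0.97) and Eng (0.18) were called, both higher. With mouse number added to the fit as a block Eng was not called (0.08, limma adjusted p = 0.30). No member of either list was called with the first principal component as a covariate, and the differences of all 6 called bile duct genes then turned negative (Mmp7 -1.37, Krt7 -0.68, Epcam -0.45).

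Neutrophil genes were higher in 6 of 8 measured, against 17.4% of all genes, with a median of 1.35 log2, the widest median of the lists. Lcn2, an iron-binding protein of neutrophils that injured hepatocytes also release, had medians of 0.86 and -2.20 and differed by 2.61 log2 (SE 0.33, limma adjusted p = 1.15e-08). The calgranulin S100a8 ran from -1.54 to 3.04 (median -0.33) in the high livers and from -4.78 to 2.95 (median -1.94) in the low ones, a difference of 1.84 log2 (SE 0.38, limma adjusted p = 1.18e-04). Its partner S100a9 was 1.62 higher and the granule protein Ngp 1.86. The groups overlapped at the top, where single low livers reached 2.95 for S100a8 and 2.73 for Lcn2. Ngp was not called without the arrays rich in values at the limits (1.16, adjusted p = 0.067, limma), and 0 of the 8 were called with the first principal component as a covariate, where 5 of the 6 turned negative (S100a8 -0.13, Ngp -0.47).

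Lymphocyte genes were called about as often as other genes. Of 16 T and NK cell genes 3 were higher and 2 lower, where 17.4% and 22.5% of all genes were, and the T cell receptor chains Cd3d (0.02), Cd3e (-0.22) and Cd3g (0.39) were not called. Cd28, a T cell costimulator, was 0.90 log2 higher (SE 0.21, limma adjusted p = 4.83e-04), and in 1 high liver it reached 4.63. Of 7 B and plasma cell genes, Cd22 (1.10) and Cd79b (0.30) were called, both higher. Class II antigen presentation genes were higher in 5 of 7, against 17.4% of all genes: the invariant chain Cd74 by 1.13 log2, H2-Aa by 1.05, H2-Ab1 by 0.96, H2-DMb1 by 0.59 and the class II transactivator Ciita by 0.22. With the first principal component as a covariate 0 of the 16, 7 and 7 genes of these 3 lists were called.

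Chemokines split. Ccl3 was 1.99 log2 higher (medians 0.85 and -1.49, SE 0.27, limma adjusted p = 4.00e-08), Ccl2, which draws monocytes, 1.48, Ccl7 1.04 and Ccl4 0.61. The interferon-induced Cxcl9 was 1.02 log2 lower, Cxcl10 0.64, the stromal chemokine Cxcl12 0.49 and the cytokine Il1b 0.53, while Tnf (0.36) and Tgfb1 (0.05) were not called. Of 7 interferon response genes 3 were lower, Ifit1 by 0.58 log2, Irgm1 by 0.51 and Ifit3 by 0.42, with none higher; 22.5% of all genes were lower. Proliferation genes were higher in 8 of 10, against 17.4% of all genes, with a median of 0.61 log2, among them Mki67 (1.03), Ccna2 (0.99) and Top2a (0.59). Under the fit with the first principal component 0 genes of these 3 lists were called, and 5 of the 8 proliferation genes turned negative.

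**Figure D3:**
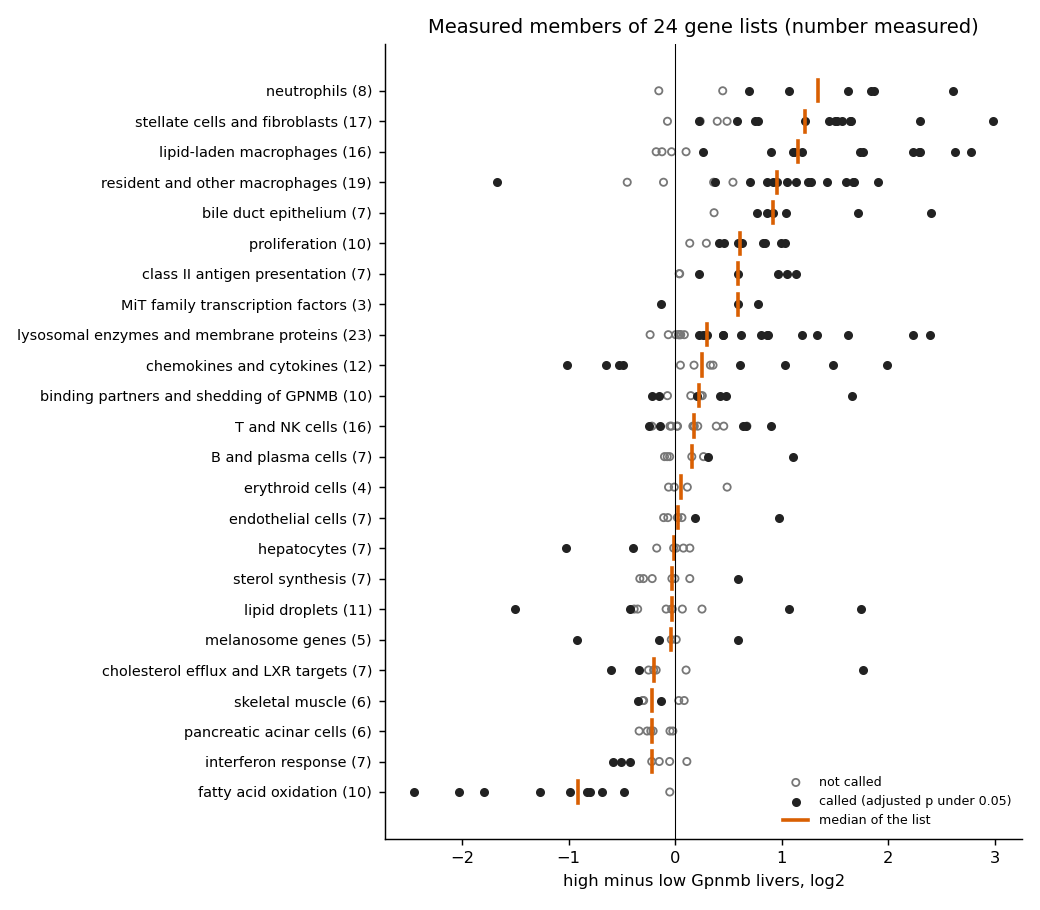
Difference between high and low Gpnmb livers (horizontal axis, log2) for each measured member of 24 gene lists (rows, with the number measured), filled where called and open where not, with the median of the list as an orange bar. Neutrophil, stellate cell, lipid-laden macrophage and macrophage genes have the highest medians (1.35, 1.21, 1.15 and 0.96), fatty acid oxidation the lowest (-0.91), and hepatocyte genes lie at -0.01.

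Genes of fatty acid oxidation were lower in the high-Gpnmb livers. Of 10 measured, 9 were lower and none higher, against 22.5% lower among all genes, and the median difference was -0.91 log2. Cyp4a14, a fatty acid hydroxylase under control of PPAR alpha, ran from -5.28 to 0.36 (median -1.45) in the high livers and from -1.42 to 1.48 (median 0.76) in the low ones. Of the high livers, 14 lay below every low liver. The difference was -2.45 log2 or 5.48-fold (SE 0.38, limma adjusted p = 6.45e-07). Its relative Cyp4a10 was 2.03 log2 lower, the thioesterase Acot1 1.79, the peroxisomal enzyme Ehhadh 1.27, the carnitine transferases Cpt2 and Cpt1a 0.99 and 0.48, the dehydrogenases Acadm and Acadl 0.80 and 0.68, and the receptor Ppara itself 0.82. Pdk4, a kinase that spares glucose, was not called (-0.05). None of the 10 was called with the first principal component as a covariate, where 5 of the 9 turned positive (Cyp4a14 0.02, Cyp4a10 0.15).

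The largest negative differences were otherwise mostly in enzymes of hepatocytes. Sult2a8, a bile acid sulfotransferase, lay between -5.13 and 0.68 (median -2.14) in the high livers and between -1.96 and 1.92 (median 0.44) in the low ones, and differed by -2.71 log2 (SE 0.33, limma adjusted p = 3.94e-09). Hao2, a peroxisomal hydroxyacid oxidase, differed by -2.65, and Car3, a carbonic anhydrase abundant in liver and fat, by -2.61. The low values came from part of the high livers: 14 of 26 were below every low liver for Sult2a8, 4 for Hao2 and 10 for Car3. Sult3a1, a female-predominant sulfotransferase, had a median of -5.70 in 24 high and -3.33 in 26 low livers with a value; its values reached -6.50, near the lower limit of the scale at -6.64, where values were taken as not measured. The carboxylesterase Ces3a (-2.04), the cytochromes Cyp2f2 (-1.60) and Cyp2j5 (-1.56), the aspartic protease Ctse (-1.81) and Cnmd (-1.65) completed the 15 most negative with Paqr9 (-1.93), Serpinb1a (-1.71) and those named above. Of these 15, Cd163 alone stayed called with the first principal component as a covariate. Sult2a8 then differed by -0.42 log2, Hao2 by -0.63 and Ces3a by -0.11, while Car3 (0.12) and Cyp2f2 (0.68) turned positive, as did Cyp4a14 and Cyp4a10.

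General hepatocyte products were lower about as often as other genes. Of 7 measured hepatocyte markers none was higher and 2 were lower, where 22.5% of all genes were: Ttr, the thyroid hormone carrier transthyretin, by 1.02 log2 and Apoc3, an apolipoprotein, by 0.39. Alb, albumin, ran from -1.07 to 2.14 in the high livers and from -1.16 to 1.42 in the low ones, a difference of 0.01 log2 (95% interval -0.32 to 0.34, limma adjusted p = 0.97). Apoa1 (-0.17), Ahsg (-0.01), Arg1 (0.14) and Ass1 (0.08) were not called. With the first principal component as a covariate Apoc3 turned and was called higher (0.55, limma adjusted p = 0.032), as was the urea cycle enzyme Ass1 (0.77, adjusted p = 0.028), and Ttr differed by 0.07. Since every value is a ratio to a pool of the same livers, the labelled tissue cannot be checked by the absolute level of these markers. Erythroid (0 of 4) and pancreatic (0 of 6) genes were not called, and 2 of 6 muscle genes were lower.

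Lipid genes of other kinds moved singly. Of 11 lipid droplet genes, Fabp4, a fatty acid carrier of fat cells and macrophages, was 1.74 log2 higher (medians 0.72 and -0.83, SE 0.17, limma adjusted p = 2.13e-11), and Cidea, a droplet fusion protein, 1.07 higher. The lipase inhibitor G0s2 was 2.83-fold lower (medians -1.52 and 0.00 log2) and the acyltransferase Mogat1 0.42 log2 lower. The droplet coats Plin2 (-0.38) and Plin5 (-0.35) were not called, and neither were the transporters Abcg5 (-0.20) and Abcg8 (-0.25). The oxysterol receptor Nr1h3 and its target Srebf1 were 0.34 and 0.60 log2 lower. Of 7 genes of sterol synthesis 1 was called, Sqle, 0.59 log2 higher. The 11 lipid droplet genes had 2 higher and 2 lower, where 17.4% and 22.5% of all genes were, 39.8% in either direction. With the first principal component as a covariate 1 of the 11 was called, Fabp4 (0.82, limma adjusted p = 0.034), and none of the 7. Cidea (-0.42), Mogat1 (0.19), Nr1h3 (0.36) and Sqle (-0.29) then turned direction.

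Genes near Gpnmb were examined because linked genes are inherited together in an F2. Of 665 other genes measured on chromosome 6, 256 (38.5%) were called, 120 higher and 136 lower, beside 40.0% of 11472 genes on the other chromosomes. By share of genes called, chromosome 6 ranked 14 of 20, and 1 of 20 in the fit with the first principal component. Within 5 Mb of Gpnmb 14 of 44 genes were called (31.8%), from 5 to 20 Mb 48 of 131 (36.6%) and farther away 194 of 490 (39.6%). With the first principal component as a covariate 20 of the 665 were called (3.01%, beside 1.49% of all genes and 1.43% of the genes on other chromosomes), and chromosome 13 came next with 2.20%. In that fit 2 of 44 were called within 5 Mb (4.55%), 3.05% from 5 to 20 Mb and 2.86% farther away.

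The 10 nearest measured genes were of both kinds. On the side of higher coordinates, Malsu1, a mitochondrial ribosome assembly factor 0.06 Mb away, was 0.27 log2 lower (limma adjusted p = 0.0011), and Tra2a, a splicing factor at 0.21 Mb, 0.51 higher (adjusted p = 0.0030, limma). The RNA-binding protein Igf2bp3 (0.05), the kinase Stk31 (-0.20) and the neuropeptide Npy (-0.06) were not called. On the other side the membrane proteins Tmem176a and Tmem176b of antigen-presenting cells, at -0.20 and -0.21 Mb, were 0.70 and 0.49 log2 higher (limma adjusted p = 1.59e-05 and 6.73e-06). The amine oxidase Aoc1 (0.22) and the lymphocyte GTPases Gimap3 (0.39) and Gimap1 (0.25) were not called. None of these 10 was called with the first principal component as a covariate, and their groups overlapped: of the 26 low livers, 16 lay below every high liver for Tmem176b and 10 for Tmem176a.

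The 25 called genes of chromosome 6 with the smallest adjusted p all lay more than 5 Mb from Gpnmb, as did most genes measured there (44 of 665 lay within 5 Mb). Several are known from macrophages or matrix. Capg led at 23.5 Mb, then Emp1, an epithelial membrane protein (2.64 log2, 86.3 Mb), the cytidine deaminase Apobec1 (1.11, 73.5 Mb), the complement receptor C3ar1 (0.70, 73.8 Mb), Tpra1 (0.59, 39.9 Mb) and Clec7a (80.4 Mb). Irf5, an interferon regulatory factor of macrophages (1.30, -19.5 Mb), the phosphatase Ptpro (1.39, 88.3 Mb), the hexokinase Hk2 (1.20, 33.7 Mb), the tetraspanin Cd9 (1.10, 76.4 Mb) and Col1a2 (1.52, -44.5 Mb) were also among them. Cd163 is on the same chromosome at 75.3 Mb and went in the opposite direction. Of the 25, only Tprkb was lower (-0.50 log2). With the first principal component as a covariate Hk2 (0.57), Cd9 (0.41), Col1a2 (0.60) and Tprkb (-0.04) were not called. The others of the 25 named so far in this paragraph were. Among the rest of the 25, Clec1b, Tfec and Anxa4 were called in that fit. Tmem43, Tmsb10, Lrmp, Mitf, Tes, Rab19, Ift122, Mest, Akr1b8 and Eif4e3 were not. Within 5 Mb, Hibadh, a valine-degrading enzyme singled out after its values were seen, had the largest r with Gpnmb (-0.569) and was 0.75 log2 lower (limma adjusted p = 1.28e-06).

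**Figure D4:**
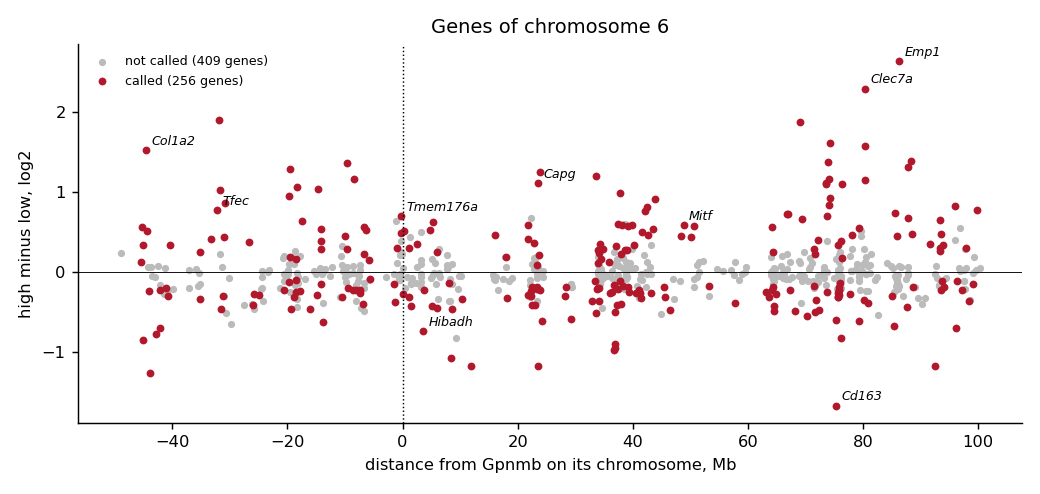
Difference between high and low Gpnmb livers (vertical axis, log2) of each measured gene of chromosome 6 against its distance from Gpnmb (horizontal axis, Mb), red where called. Called genes (256 of 665) lie along the whole chromosome, and Capg, Emp1 and Clec7a, at 23.5, 86.3 and 80.4 Mb, are among those with large positive differences.

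The 52 middle livers were not used to form the groups and gave a second set of values for the same genes. Within them, the slope of each gene on Gpnmb was fitted over 2.86 log2 of Gpnmb. No gene was called there (0%, limma, lowest adjusted p = 0.12), while 1673 genes (13.6%) had an unadjusted p under 0.05, and a fit with array weights called 111. Of the 4904 genes called between the extreme groups 4453 (90.8%) had a slope of the same sign, beside 4552 of 7410 genes not called (61.4%), and genes are not independent of each other. Lgals3 had a slope of 0.57 log2 per log2 of Gpnmb (SE 0.12, unadjusted p = 1.07e-05, limma, 52 livers), Cd63 0.42 and Col1a1 0.67. Of the 4 lipid-laden macrophage genes not called, Trem2 had a slope of -0.05 (unadjusted p = 0.011, limma, 52 livers), and the others did not reach 0.05. The 12 called genes of that list all had positive slopes at an unadjusted p under 0.05. Of the 13 called stellate cell genes 11 did so, of the 15 called lysosomal genes 8, and of the 9 called fatty acid oxidation genes 6 with negative slopes, beside 1356 of all 4904 called genes (27.7%) with the same sign and such a p. Among listed genes that were called, Ctsz, Cd79b, Eng, Cxcl10 and Cidea had slopes of the opposite sign. Cd163 had a slope of -0.10 with an unadjusted p of 0.67, and none of the 5 called class II genes reached 0.05.

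**Figure D5:**
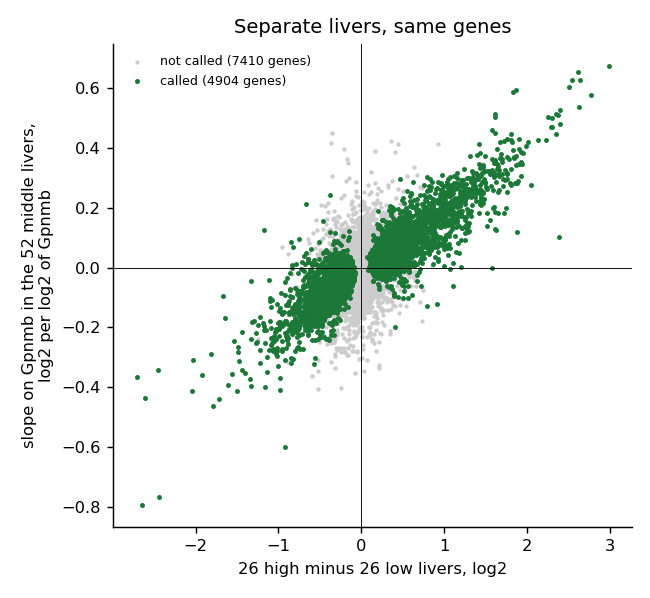
Slope of each gene on Gpnmb within the 52 middle livers (vertical axis, log2 per log2 of Gpnmb) against its difference between the 26 high and 26 low livers (horizontal axis, log2), green where called. The called genes lie mostly in the lower left and the upper right (4453 of 4904).

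The comparison was repeated without the 18 limit-laden arrays, which had from 946 to 1828 values at -2 or 2 where the remaining 86 had at most 496. Without them 1831 genes were higher and 2305 lower, 3836 of the 4904 stayed called and all kept their direction. Cd63 then differed by 2.14 log2, Cd68 by 1.52 and Ctsd by 1.15. Of the genes named by rule 12 lost their call: Tfeb and Ngp as given above, Tyrp1 (-0.04, adjusted p = 0.56, limma), Nr1h3 (-0.33, adjusted p = 0.079), Apoc3 (-0.33, adjusted p = 0.13), Sdc4, Itgav, Cd79b, Sqle, Mogat1, the T cell chemokine Ccl5 and the muscle creatine kinase Ckm. With the mice numbered 70 or below alone 1408 genes were higher and 1282 lower, and with the others alone 1083 and 1108. Of the 4904 genes, 4853 and 4895 kept their direction in these subsets.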

How the data were processed

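The values deposited by the authors were 1 log ratio for each of 23536 probes on 107 arrays, read here as log10 of mouse over pool. Software is not given in the sources used here, nor is the normalization. Arrays with no nonzero value (3) were left out, values at -2 or 2 (1.07%) were set missing, 1.69% were missing already, and ratios were multiplied by 3.3219 to give log2. Probes with values on at least 90% of arrays (20633) and 1 gene symbol in the platform annotation (13238) were averaged per gene, giving 12315 genes. Of these, 12139 matched the gene table of GRCm38.p6, by gene identifier or, where that was absent from it, by symbol. Of all probes 14744 had 1 symbol, 18 several and 8774 none here. Mice were ranked by the Gpnmb probe and the 26 highest compared with the 26 lowest by limma 3.58.1 (lmFit, eBayes; R 4.3.3), with Benjamini-Hochberg adjustment over 12314 genes and a threshold of 0.05. The fit was tested on simulated data with noise drawn independently for each gene. That simulation held no variation shared between genes, so it does not show how the fit behaves under such variation. The number of arrays limits the precision, and the labels do not say whether mice shared a cage or litter.

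The members, the 24 gene lists (284 entries, 232 measured) and the tests were chosen with earlier results of these data known. Genes are named by rule: the 15 largest differences each way, 25 called genes of chromosome 6 and the 5 genes nearest to Gpnmb on each side, the 8 most and 5 least like it, up to 4 called members of each list with the smallest adjusted p, and all MiT factors and binding partners; other list members are given with their values to fill out a list. Alternatives covered values at the limits, missing values, normalization, group size, array weights, mouse number and the first principal component.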

Additional observations from a re-analysis of the deposited data

Results flagged for a closer look

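For 3 named genes the difference between high and low Gpnmb livers itself differed between the 18 arrays rich in values at the limits of the scale and the other arrays, by an interaction term (limma, adjusted over 12309 genes, of which 490 passed and 1675 had an unadjusted p under 0.05). The difference of Fabp5 was 3.40 log2 larger on those arrays (5.44 against 2.04, adjusted p = 5.90e-05). That of Cd200, a surface glycoprotein that restrains myeloid cells, was 2.18 log2 larger (4.04 against 1.86, adjusted p = 0.0057). That of Tyrp1 was more negative by -0.49 log2 (-0.53 against -0.04, adjusted p = 0.0044). The test rests on 5 high and 6 low livers among those arrays, and its cause was not tested.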

How the results depend on the processing

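Of 12314 genes, 2137 were higher and 2767 lower, with 256 called on chromosome 6. With the first principal component as a covariate the counts were 144, 40 and 20. Chosen after seeing the data, the array median as a covariate gave 724, 469 and 75, the 18 arrays rich in values at the limits alone 1058, 732 and 102, mice numbered 70 or below 1408, 1282 and 148, and the other mice 1083, 1108 and 121; the last 3 use fewer mice, and for the covariates the cause was not tested. Leaving out each of the 52 mice in turn gave 2041 to 2237 higher, 2622 to 2881 lower and 244 to 268 on chromosome 6. In the middle livers array weights called 111 genes where the plain fit called 0. Quantile normalization (2345 higher, 2426 lower), scaling, groups of 20 or 34 mice, a slope over all mice, array weights and the handling of values at the limits or missing values stayed within 1.5 times the counts. Of 139 named genes 127 were called. Of these, 12 lost the call without the 18 arrays, 32 on those arrays alone and 5 with median-centred arrays. With mouse number as a block 3 lost it (Eng, Apoc3 and Ckm). None of the 127 changed direction in these fits. No paired analysis was possible because the groups were formed by Gpnmb and share no replicate numbers. Signal over background was not analysed here, so low ratios of dim probes cannot be weighed.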

Other observations

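Genes outside the lists were also among the largest differences. Il7r, the interleukin-7 receptor of lymphocytes and some macrophages, was 2.50 log2 higher in the high-Gpnmb livers (medians 0.94 and -1.69, SE 0.25, limma adjusted p = 1.57e-11), although the T cell receptor chains were not called. Anxa1, a phospholipid-binding protein of phagocytes and epithelia, was 2.38 log2 higher (medians 0.90 and -1.58), and 22 low livers lay below every high liver. Bex1, a small adaptor best known from neurons, was 2.55 higher (medians 1.05 and -1.54), with 20 high livers above every low liver. Gstm3, a glutathione transferase, was 2.38 log2 higher between the groups, yet its slope in the middle livers was 0.10 with an unadjusted p of 0.58 (limma, 52 livers). With the first principal component as a covariate Il7r (1.05) and Anxa1 (1.09) stayed called, and Bex1 (0.83) and Gstm3 (1.63) did not.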
